A study of Mus musculus with 6 samples.

Results

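miR-133a, miR-206 and miR-499 are microRNAs (miRNAs) of skeletal and heart muscle, and they were followed here in exosomes, the small vesicles that cells release into blood. They were chosen by name from a quantitative PCR panel of 380 named mouse miRNAs, and all 3 were found on it. Serum was sampled 2 weeks after ACLT, read here as surgical cutting of the anterior cruciate ligament, which makes the knee unstable. Both groups had this surgery: 3 samples are labelled vehicle and 3 OCExoInhib, which the study known to lie behind the series used to block exosome release by osteoclasts, the cells that resorb bone. The sources used here do not give strain, sex or age. The design text says that RNA of 3 mice was pooled in each group. Whether a group's samples are separate mice or repeat runs of a pool is not stated, so the p-values reflect sample-to-sample spread alone, and that spread may be technical.

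These miRNAs belong to a small group known as myomiRs, which are abundant in muscle fibres and scarce in most other tissues. miR-133a is transcribed together with miR-1 in heart and skeletal muscle, where it acts on myoblast growth, and it is also known to restrain Runx2, the master factor of bone-forming cells. miR-206 is largely restricted to skeletal muscle, promotes myoblast differentiation and supports the nerve-muscle junction. miR-499 is made from an intron of a myosin heavy chain gene and favours the slow fibre type, with Sox6 among its known targets. Muscle damage is known to raise myomiRs in blood.

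Mature sequences are shown for miR-206 and miR-499 and for miR-208a, the heart myomiR that shares most of its seed with miR-499, so that the assays compared below can be told apart. Capitals mark the seed, bases 2 to 8, which chiefly decides the targets. The sequences are from RefSeq (GRCm38.p6) and equal those that the deposited table gives for these assays.
miR-206: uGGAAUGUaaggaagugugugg
miR-499: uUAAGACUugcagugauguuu
miR-208a: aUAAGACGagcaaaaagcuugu
The panel's miR-206 is the 3p arm of Mir206, at chr1:20679055-20679076 on the plus strand. Its miR-499 is the 5p arm, at chr2:155622893-155622913 on the plus strand and within the bounds of Myh7b. miR-208a is the 3p arm, at chr14:54949072-54949093 on the minus strand and within the bounds of Myh6, the main adult heart myosin gene. The annotation table used gives gene bounds only, so exon and intron were not read from it. Of the 3 miRNAs, 2 matched a RefSeq entry among those searched, and miR-133a did not. The search did not cover every chromosome, so this does not show that RefSeq lacks miR-133a. miR-206 shared its seed with 1 other panel member, miR-1, and was identical to it at 18 of 22 positions. miR-133a shared its seed with 1 other, miR-133b, and was identical to it at 21 of 22 positions. miR-499 shared bases 2 to 8 with 0 panel members. Its first 6 seed bases were shared with 2, miR-208a and miR-208b.

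Levels were measured as threshold cycles (Ct), the PCR cycle at which fluorescence crosses a set line, over 40 cycles. The earlier the cycle, the more template there was, with about 1 doubling per cycle. A Ct was recorded in all 6 samples for 123 of 380 named assays and in 0 samples for the other 257. Between 108 and 109 named miRNAs were under Ct 35 in the vehicle samples and between 112 and 117 in the OCExoInhib samples. Past Ct 35 a value comes from very little template. The test was run on 115 miRNAs that were under Ct 35 in at least 3 of the 6 samples, and miR-133a, miR-206 and miR-499 were all among them. The log2 level used below is the deposited normalized value with its sign turned, so 0 is the mean level of the 3 normalizer wells P21, P22 and P23. The wells averaged Ct 30.9 ± 0.318 for vehicle and 30.2 ± 0.531 for OCExoInhib (SD, n = 3 each), a difference of −0.725 cycles (exact two-sided permutation p = 0.2). These SD are of sample averages. Single wells ran from Ct 29.982 to 32.216 in vehicle 1 and from 29.489 to 29.807 in OCExoInhib 3. Cycles of different assays depend on their primers, so the levels of different miRNAs were not ranked. Among markers of other sources of serum RNA, the red-cell miRNAs miR-451 and miR-486, the liver miRNA miR-122 and both arms of the endothelial miR-126 had no Ct in any sample. Of the leukocyte and platelet markers, miR-142-3p, miR-142-5p and miR-155 also had no Ct, and miR-223 was under Ct 35 in too few samples to be tested. Other markers listed for red cells, liver and leukocytes were measured, and none for endothelium. Of these, miR-16, listed for red cells (log2 difference −5.41, OCExoInhib minus vehicle), and miR-194, listed for liver (−5.27), fell, with limma adjusted p of 0.000193 and 0.000296. miR-144 of red cells (−0.56), miR-192 of liver (−0.16), and miR-146a (−0.998) and miR-150 (0.44) of leukocytes did not pass. The cycles of miR-16 and miR-194 also repeated a difference seen for miR-133a, vehicle 1 minus vehicle 3, as described below. Those of the markers that did not pass did not share it. The part of these sources in the results below was not tested.

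Of the muscle miRNAs, miR-133a was 7.07-fold lower in serum exosomes of the OCExoInhib group, a log2 difference of −2.82. miR-206 and miR-499 differed by −0.28 and −0.62 log2 units and did not pass the test. In each case the difference is OCExoInhib minus vehicle relative to the normalizer wells. Thus 1 of 3 was lower, against 17.4% of all 115 tested miRNAs called lower, 6.09% called higher and 23.5% called in either direction. In samples of this kind, fewer vesicles carrying a miRNA and fewer copies per vesicle cannot be told apart.

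The raw Ct of miR-133a was 29.257, 27.950 and 28.318 in vehicle samples 1, 2 and 3. It was 32.039, 29.623 and 30.153 in OCExoInhib samples 1, 2 and 3. Every OCExoInhib sample thus crossed the threshold later than every vehicle sample, with a gap of 0.366 cycles between the nearest values, of OCExoInhib 2 and vehicle 1. Relative to the normalizer wells the log2 levels were 1.74, 2.62 and 2.87 in vehicle and −1.69, 1.005 and −0.55 in OCExoInhib samples. The groups did not overlap, and the gap was 0.731 log2 units. Groups without overlap, lower in OCExoInhib, were seen for 20% of all tested miRNAs, and groups without overlap in either direction for 26.1%. Means were 2.41 ± 0.597 for vehicle and −0.41 ± 1.35 for OCExoInhib (SD, n = 3 each), and the OCExoInhib samples were spread over 2.69 log2 units against 1.14 in vehicle. The difference of −2.82 had a standard error of 0.844, a 95% interval of −4.62 to −1.03 and a limma adjusted p of 0.0184. An exact two-sided permutation test of the same levels gave p = 0.1, the smallest that 3 samples against 3 allow.

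miR-206, the skeletal muscle member, was measured late. Its raw Ct was 35.324, 33.287 and 32.455 in vehicle samples 1 to 3 and 33.011, 34.260 and 32.451 in OCExoInhib samples 1 to 3. One value of 6, that of vehicle 1, lay past Ct 35. The log2 levels were −4.33, −2.72 and −1.26 in vehicle and −2.66, −3.63 and −2.85 in OCExoInhib samples. The vehicle samples held both the highest and the lowest level, and the OCExoInhib samples lay between them. The means were −2.77 ± 1.53 and −3.05 ± 0.515 (SD, n = 3 each). The difference of −0.28 (−1.06 without vehicle 1, 0.48 without vehicle 3) had a standard error of 0.866 and a limma adjusted p of 0.870. Its 95% interval ran from −2.12 to 1.56, so changes of several fold in either direction lay within it.

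miR-499, the slow-fibre miRNA, was measured at Ct 28.613, 30.048 and 30.657 in vehicle samples 1 to 3. In OCExoInhib samples 1 to 3 it was measured at Ct 29.258, 30.280 and 29.472. None of its values were late. The log2 levels were 2.38, 0.52 and 0.54 in vehicle and 1.09, 0.35 and 0.13 in OCExoInhib samples. Vehicle 1 stood above the other 5 samples, OCExoInhib 1 came next, and the groups overlapped. The means were 1.15 ± 1.07 and 0.52 ± 0.504 (SD, n = 3 each). The difference of −0.62 had a standard error of 0.802, a 95% interval of −2.33 to 1.08 and a limma adjusted p of 0.866. Without vehicle 1 it was −0.0047.

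**Figure D1:**
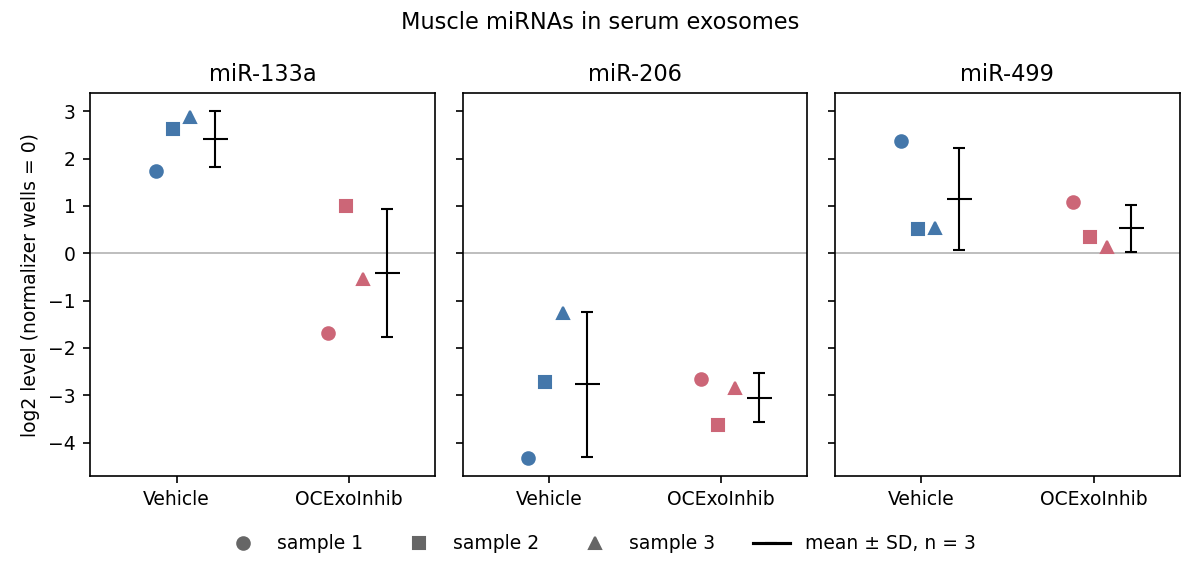
Log2 level of each muscle miRNA relative to the normalizer wells (vertical axis, wells at 0) in the vehicle and OCExoInhib samples. Points are single samples, with the sample number given by the symbol, and the bars are the mean ± SD of 3 samples; the groups are apart for miR-133a, by 0.731 log2 units, and overlap for miR-206 and miR-499.

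Among all tested miRNAs miR-133a lay at the edge of those called. It had the smallest difference of the 27 that passed, at rank 27 of 115 by size, and the 27th smallest p. The ranks by size of miR-499 and miR-206 were 56 and 100. Relative to the median difference of all tested miRNAs, which was −0.54, miR-133a differed by −2.28, miR-499 by −0.080 and miR-206 by 0.27. These distances varied with single samples and the normalization: that of miR-206 was −0.50 without vehicle 1, 0.90 without vehicle 3 and −0.99 with quantile normalization, and that of miR-499 was 0.55 without vehicle 1 and 0.65 with quantile normalization. A log2 difference below 0 was shared by 79.1% of tested miRNAs. The authors' deposited table gave ratios of vehicle over OCExoInhib of 7.068 for miR-133a, 1.211 for miR-206 and 1.539 for miR-499.

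**Figure D2:**
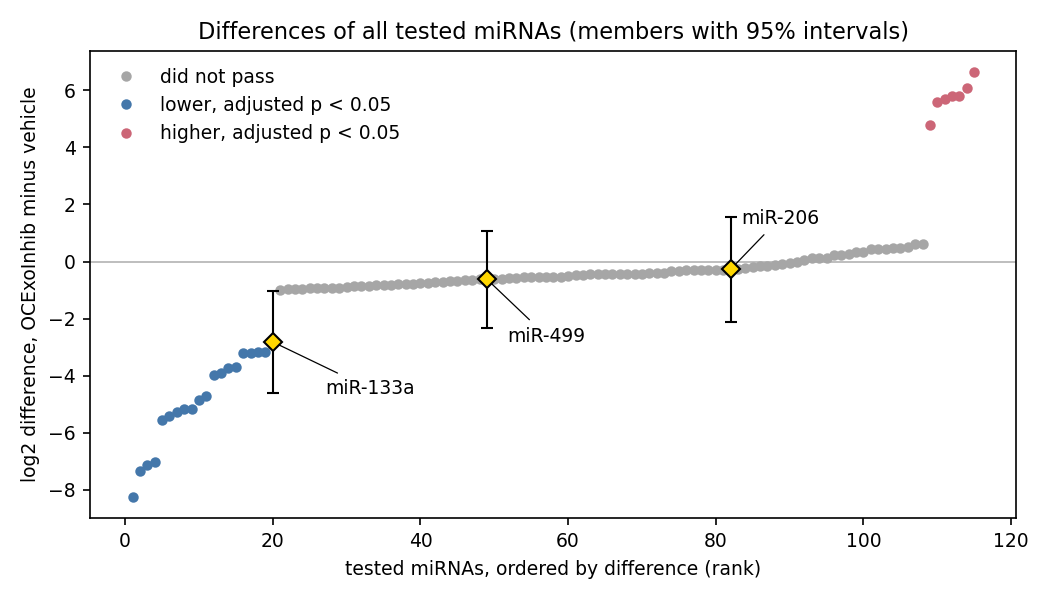
Log2 difference (OCExoInhib minus vehicle, vertical axis) of the 115 tested miRNAs in order of size, with miR-133a, miR-499 and miR-206 as diamonds and their 95% intervals. miR-133a is the last of the 20 that passed downward, at −2.82, and the other muscle miRNAs sit in the flat middle part at −0.62 and −0.28.

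The miRNAs were also set against each other within each sample, where the normalizer cancels. miR-133a minus miR-206 was 6.07, 5.34 and 4.14 log2 units in vehicle samples 1 to 3. It was 0.97, 4.64 and 2.30 in OCExoInhib samples 1 to 3. Only OCExoInhib 2 reached into the vehicle range. For the change of −2.54 the exact two-sided permutation test gave p = 0.2, or 0.3 after Benjamini-Hochberg adjustment over the 3 pairs. miR-133a minus miR-499 was −0.64, 2.10 and 2.34 in vehicle and −2.78, 0.66 and −0.68 in OCExoInhib samples. Its change of −2.20 had the same p of 0.2 (0.3 adjusted, exact test), with vehicle 1 inside the OCExoInhib range. miR-206 minus miR-499 changed by 0.35 (exact p = 0.9, adjusted 0.9), and without vehicle 1 by −1.05. It ran from −6.71 to −1.80 in vehicle and from −3.98 to −2.98 in OCExoInhib samples. The fall of miR-133a was thus not shown to differ from the changes of the other muscle miRNAs, and the design cannot reach p under 0.1 in this test.

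The call of miR-133a depended on the normalization and on single samples. The log2 difference was −1.64 with global mean normalization (limma adjusted p 0.238), −1.20 with quantile normalization (0.518), −2.10 without normalization (0.139) and −0.30 with each sample centred on its median (0.733), so none of these passed. Leaving out vehicle 3 gave an adjusted p of 0.0762, leaving out OCExoInhib 1 gave 0.121 and leaving out OCExoInhib 3 gave 0.0608. The fold was 4.54 without OCExoInhib 1 and 11.5 without OCExoInhib 2, which were the lowest and the highest OCExoInhib samples. Median centring moved the median difference of all tested miRNAs from −0.54 to 1.98, and global mean normalization moved it to 0.64. The distance of miR-133a from the median difference of all tested miRNAs was −2.28 for the normalizations that shift each sample by a constant. Such a shift moves every miRNA alike, so this distance could not change between them. With quantile normalization, which can change it, the distance was −1.40. The differences of miR-206 and miR-499 turned above 0 with global mean normalization (0.90 and 0.56), and miR-206 passed upward with median centring (2.25, limma adjusted p 0.0365). With that centring 57 of the 115 tested miRNAs were called higher, and the median difference of all was 1.98.

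**Figure D3:**
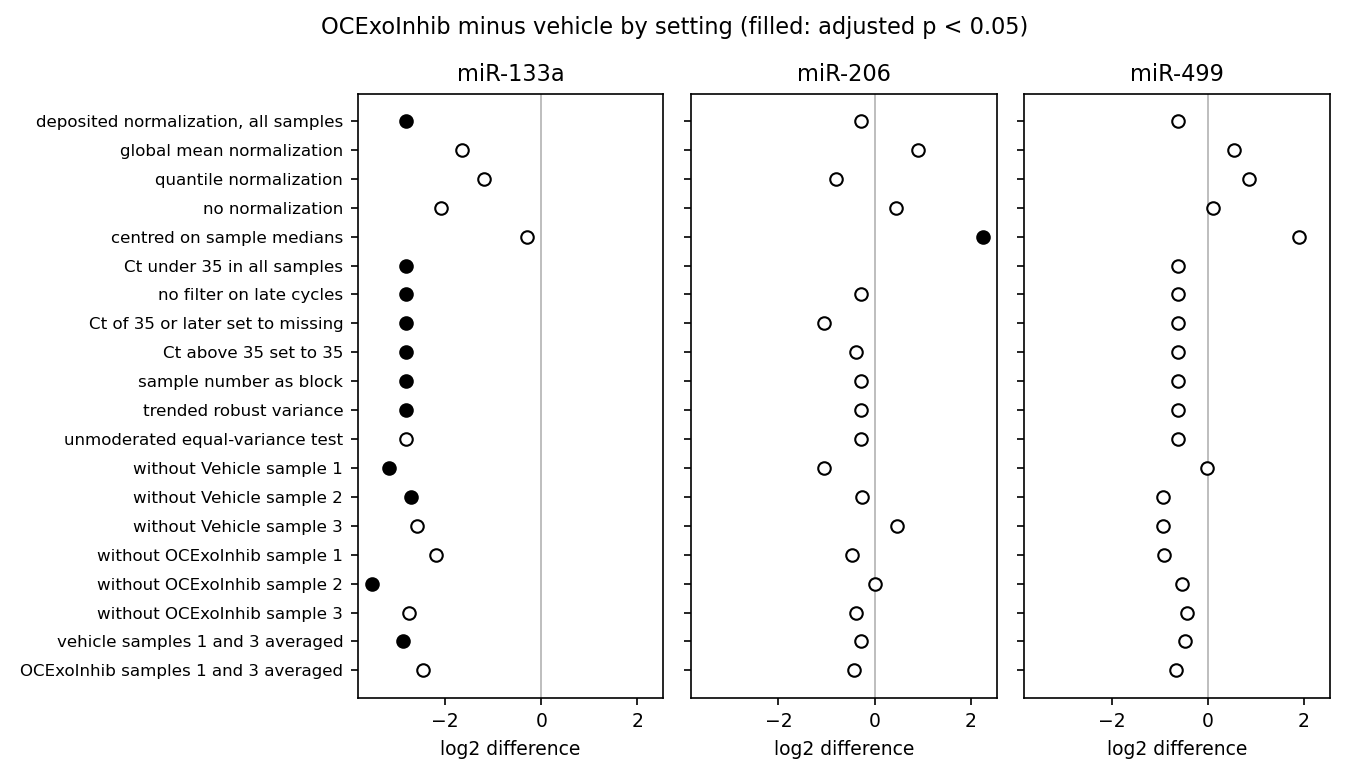
Log2 difference (OCExoInhib minus vehicle, horizontal axis) of each muscle miRNA under each setting, with filled points where the limma adjusted p was under 0.05. miR-133a was below 0 in all 19 alternative settings, of which the Ct limits, variance models and block could not change its difference. The miR-133a call was lost in 9 of the 19, with every other normalization among these. miR-206 and miR-499 crossed 0 with other normalizations.

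Some of the cycles of miR-133a were related to those of other miRNAs in a way that those of miR-206 and miR-499 were not. Vehicle 1 minus vehicle 3 was 0.939 cycles for miR-133a, and 16 other miRNAs had the same difference within 0.0015 cycles. OCExoInhib 1 minus OCExoInhib 3 was 1.886 cycles, and 9 other miRNAs shared it. Both differences were shared by 7 others: let-7e, miR-125b-5p, miR-145, miR-15a, miR-16, miR-214 and miR-652. All 16, and all 9, were called lower in OCExoInhib samples, as miR-133a was, beside 17.4% of all 115 tested miRNAs. Counting miR-133a, 17 of the 20 miRNAs called lower thus carried the vehicle 1 to vehicle 3 difference. For miR-206, miR-499 and miR-208a, each of the 6 within-group differences was shared with 0 other miRNAs. Over the panel, repeated differences were not limited to samples 1 and 3. The largest number of others sharing a difference with any one miRNA was 9 for OCExoInhib 1 minus OCExoInhib 2 and 4 for OCExoInhib 2 minus OCExoInhib 3, and 1 each for vehicle 1 minus vehicle 2 and vehicle 2 minus vehicle 3. With vehicle samples 1 and 3 averaged into 1, a setting chosen after seeing the data, miR-133a kept its call (log2 difference −2.87, limma adjusted p 0.0429). With OCExoInhib samples 1 and 3 averaged it did not (−2.47, adjusted p 0.0786). Averaging keeps the cycles of both samples in the group mean, so what part the repeated cycles have in the fall was not tested.

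The patterns most like each muscle miRNA were found by the root mean square distance between log2 levels centred over the 6 samples, among the tested miRNAs. For miR-133a these were miR-145 (distance 0.643, r = 0.92), miR-125b-5p (0.671, r = 0.92) and miR-214 (0.713, r = 0.94). All are among the miRNAs that share both of its repeated differences. For miR-206 they were miR-92a (0.207, r = 0.99), miR-103 (0.374, r = 0.95) and miR-497 (0.379, r = 0.96). Like miR-206, these were lowest in vehicle 1 and highest in vehicle 3. For miR-499 they were miR-291a-3p (0.290, r = 0.92), miR-452 (0.328, r = 0.92) and miR-30b (0.416, r = 0.88), all highest in vehicle 1. The 3 muscle miRNAs were not among each other's nearest patterns. Each r is a description over 6 samples that share 1 normalizer value per sample.

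**Figure D4:**
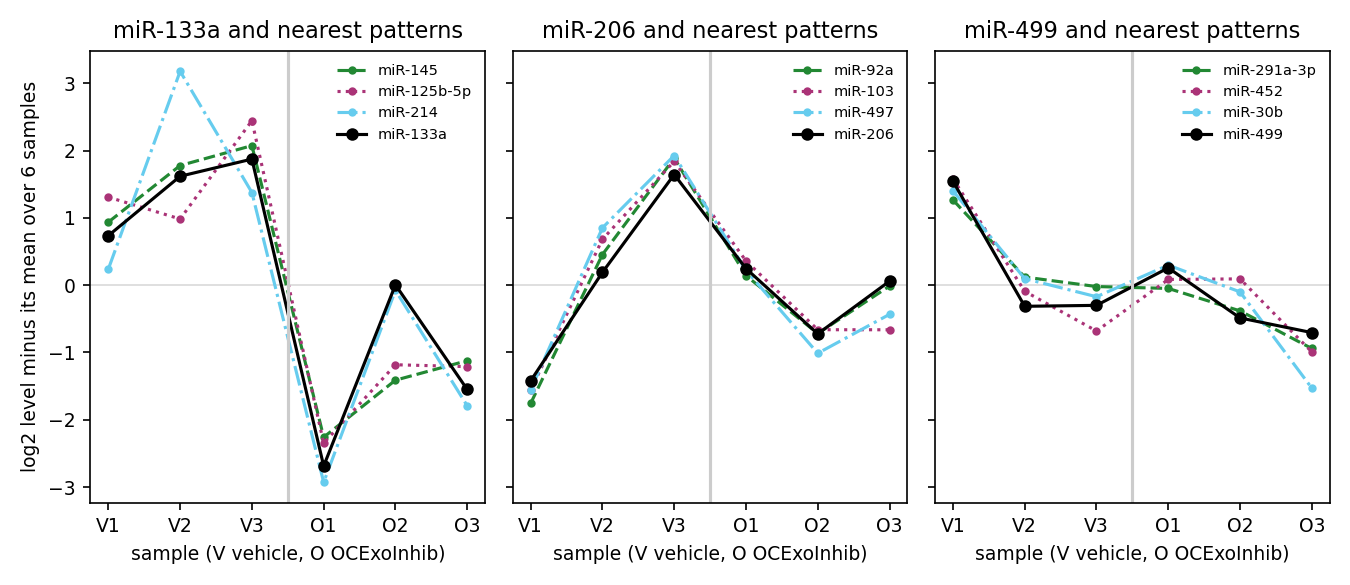
Log2 level minus its mean over the 6 samples (vertical axis) for each muscle miRNA in black and its 3 nearest patterns, with vehicle samples V1 to V3 left of the grey line and OCExoInhib samples O1 to O3 right of it. Lines only join the values of 1 miRNA; miR-133a drops from vehicle to OCExoInhib, while miR-206 varies most between V1 and V3 and miR-499 stands out in V1.

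The other muscle miRNAs on the panel were mostly without a Ct. Of 8 muscle list members on the panel, 3 were tested, 1 was late and 4 had no Ct in any sample. The 4 were miR-1, miR-133b, miR-208b and miR-486. miR-1 is the transcription partner of miR-133a, and miR-133b lies 3686 bases downstream of miR-206 in the same genomic cluster. Thus neither partner was measured beside a member that was. miR-208a, made from the heart myosin gene Myh6, was near the limit, with 4 of 6 values at Ct 35 or later. Its raw Ct was 35.029, 36.642 and 34.106 in vehicle and 34.235, 36.602 and 35.439 in OCExoInhib samples, so the groups overlapped. With no filter on late cycles its log2 difference was −0.89 (SE 0.922, limma adjusted p 0.852, 95% interval −2.85 to 1.07). The authors' deposited table gave it a ratio of 1.854. The median log2 difference of the 3 tested muscle miRNAs was −0.62, beside −0.54 for all tested miRNAs.

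A wider list held 21 panel entries of miRNAs reported to act in myoblast growth, differentiation or muscle wasting. Of these, 12 were tested and 9 had no Ct, and 3 were called lower, 1 higher and 8 neither, beside 17.4% lower and 6.09% higher of all tested miRNAs. The median log2 difference of the 12 was −0.68 and 11 of the 12 were below 0, beside a median of −0.54 and 79.1% below 0 of all tested miRNAs. Those that fell were miR-378 (−5.18, SE 0.869), which represses the MyoD antagonist MyoR, miR-214 (−3.20, SE 0.944), which represses the chromatin enzyme Ezh2 in differentiating muscle, and miR-125b-5p (−3.16, SE 0.782), which restrains insulin-like growth factor 2. miR-29c, whose family represses the myogenic brake YY1, rose (5.68, SE 0.747). All 3 of its vehicle values were late, at Ct 35.467 to 36.694, against 29.323 to 29.982 in OCExoInhib samples. With late values set to Ct 35 its log2 difference was 4.70, and it was not tested where all 6 samples had to be under Ct 35. The limma adjusted p was 0.000193 for miR-378, 0.0174 for miR-214, 0.00488 for miR-125b-5p and 3.6e-05 for miR-29c. The miR-29c relatives miR-29a (−0.97) and miR-29b (−0.63) did not pass, nor did miR-221 (−0.55) or miR-26a (−0.74), all with an adjusted p of 0.866. Each of the 3 that fell carried the vehicle 1 to vehicle 3 difference of miR-133a, as did 17 of the 20 miRNAs called lower, miR-133a included.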

How the data were processed

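Per the labels' protocols, exosomal RNA was column-purified, reverse transcribed with a mouse exosome profiling kit and run as SYBR Green PCR on a ViiA7 for 40 cycles. Raw Ct values, and log2-scale values that the authors normalized to a spike-in per the file headers, were deposited for 6 samples. In every sample the normalized value is the raw Ct less the average of the 3 wells P21 to P23, which carry no RNA name in the file. The ratio of vehicle over OCExoInhib is the authors' fold as deposited. How the fluorescence threshold was set is not given in the sources used here. Both tables held 0 further sample columns.

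The test was two-sided limma (version 3.58.1, R 4.3.3, lmFit and eBayes), fitted to all 115 tested miRNAs with Benjamini-Hochberg adjustment and a threshold of 0.05, and checked on simulated data. Pairs of miRNAs used exact permutation tests in Python 3.11.15. The miRNAs and lists were chosen with earlier results of these data known. Named were the 3 muscle miRNAs, the muscle list, of the regulator list those that passed and the 4 others with the smallest p, and 3 nearest patterns per miRNA. A list name without its own entry was matched to its 5p and 3p arms. Alternatives were other normalizations, Ct limits, variance models, the sample number as a block and each sample left out. Of the marker lists, red-cell and liver miRNAs had 1 of 2 tested called lower each (miR-16 and miR-194), leukocyte and platelet miRNAs 0 of 2, and endothelial miRNAs 0 tested, with 0 called higher. Of all tested miRNAs, 17.4% were called lower and 6.09% higher.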

Additional observations from a re-analysis of the deposited data

How the results depend on the processing

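miR-133a kept its direction in all 19 alternative settings and its call in 10. None of its values were late, so the Ct limits could not change its difference. The variance models and the block changed only its error. The call was lost with every other normalization: global mean (log2 difference −1.64), quantile (−1.20), none (−2.10) and median-centred (−0.30). It was also lost with the unmoderated test (−2.82, adjusted p 0.137) and in 3 settings that left out 1 sample. With OCExoInhib samples 1 and 3 averaged, a setting added with the data in view, it was lost too (−2.47). With 1 sample left out the difference ran from −3.53 to −2.18 for miR-133a, −1.06 to 0.48 for miR-206 and −0.93 to −0.0047 for miR-499. The sign of miR-206 turned with global mean (0.90), no (0.45) and median-centred normalization (2.25), and without vehicle 3 (0.48) or OCExoInhib 2 (0.016). That of miR-499 turned with global mean (0.56), quantile (0.85), no (0.10) and median-centred normalization (1.90). With a Ct under 35 in all samples miR-206 was not tested. With the sample number as a replicate block miR-133a had the same difference (−2.82) and an adjusted p of 0.0460, and no call of the 3 changed. The labels do not say that the numbers pair the samples. Deviations from the group means correlated by 0.0587, 0.0177 and 0.117 between samples 1, 2 and 3 of the groups. Vehicle 1 correlated best with OCExoInhib 2 (0.0985) and vehicle 2 with OCExoInhib 3 (0.0607). The pair differences ranged from −3.55 to −1.71 (miR-133a minus miR-206), −3.15 to −1.28 (miR-133a minus miR-499) and −1.05 to 1.40 (miR-206 minus miR-499) with samples left out.

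Of all tested miRNAs, 27 were called (20 lower, 7 higher), and 24 to 27 with samples left out (17 to 20 lower, 7 to 7 higher). Quantile normalization gave 16 (9 lower), median centring 68 (11 lower, 57 higher) and the unmoderated test 15 (11 lower, 4 higher). With every Ct required under 35 there were 0 higher calls, and 3 where late values were set to missing. Apart from the filters, which remove late miRNAs, the cause was not tested.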
